A study of Mus musculus with 2 samples.

Results

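*Krt5*, *Krt14* and *Krt15* encode the keratins of the basal keratinocyte layer, and they were chosen by name as 3 of the 19046 genes counted in the dorsal skin of mice. Whole skin of 1 wildtype C57BL/6J mouse and of 1 untreated Eppk1 knockout mouse, in which the gene for the cytolinker epiplakin is deleted and which had been backcrossed into C57BL/6J, was dissociated, fixed and profiled cell by cell with pairs of gene-specific probes (10x Flex). Both animals' ages are not given in the sources used here. Each genotype is therefore 1 animal and 1 library, no test between genotypes was possible, and the intervals below are 95% intervals that cover counting error only. Levels are unique molecular identifiers (UMIs) of a gene per 1000000 UMIs of a group of cells (CPM, counts scaled to that total), and where 2 values stand together the wildtype value comes first. Without a test, a gene is called higher or lower in one genotype where the log2 ratio of its levels passes 0.5.

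Keratins are intermediate filament proteins that assemble from 1 type I and 1 type II chain. *Krt5* is the type II chain and *Krt14* its main type I partner in the basal layer of stratified epithelia, and mutations in the human counterparts of either cause the blistering disease epidermolysis bullosa simplex. *Krt15* is a further type I chain of basal cells that is also used as a marker of the hair follicle bulge, where follicle stem cells reside. Cells that leave the basal layer turn to *Krt1* and *Krt10*, and later to the cornified envelope genes *Flg* and *Lor*.

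The genes lie on 2 chromosomes (GRCm38, all on the minus strand). *Krt5* is at chr15:101707070-101712898, 25.6 Mb from *Eppk1* on the same chromosome, whereas *Krt14* at chr11:100203162-100207548 and *Krt15* at chr11:100131758-100135928 lie in the type I keratin cluster. Because a probe pair covers 50 bases, every stretch of 50 coding bases was set against the coding sequences of 52 other keratins. In *Krt14*, 73.8% of 1403 such stretches had 5 or fewer differences to another keratin, in *Krt5* 42.8% of 1691, and in *Krt15* 21.0% of 1319. The closest relatives were *Krt16* for *Krt14*, *Krt6b* for *Krt5* and *Krt17* for *Krt15*, each with identical stretches. The closest stretch shared by *Krt14* and *Krt15* differed at 2 bases, and *Krt5* differed from either of them at 11 bases or more. The positions of the probes are not given in the sources used here, so reads from such stretches are uncertain. These stretches, all in exon 1 and read from the mm10 reference, show how near the paralogues are, with capitals at the bases that differ between *Krt14* (chr11:100207040-100207089) and *Krt15* (chr11:100135512-100135561) in the first pair and no differing base in the others:
Krt14 against Krt15: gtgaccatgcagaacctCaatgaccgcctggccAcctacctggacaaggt
Krt15 against Krt14: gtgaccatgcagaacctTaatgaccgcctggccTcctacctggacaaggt
Krt14 (chr11:100207406-100207455) and Krt16 (chr11:100248841-100248890): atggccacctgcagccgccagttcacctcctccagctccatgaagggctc
Krt5 (chr15:101712316-101712365) and Krt6b (chr15:101679759-101679808): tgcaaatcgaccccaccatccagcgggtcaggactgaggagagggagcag
Krt15 (chr11:100135448-100135497) and Krt17 (chr11:100260597-100260646): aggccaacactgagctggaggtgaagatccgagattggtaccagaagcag

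The counts of these relatives could be low where those of the members were high. In sebocytes, *Krt14* stood at 3947 and 4653 CPM, and *Krt16* at 29.9 and 29.2 CPM. In bulge-like sub-cluster 8, the level of *Krt15* was 16396 and 15646 CPM, with *Krt17* at 551 and 429 CPM. *Krt6b* had 0 UMIs in basal-like sub-cluster 2, in which *Krt5* reached 13252 and 14313 CPM. In all keratinocytes, *Krt6b* had only 24 and 4 UMIs. *Krt16* was not low everywhere, as it stood at 3220 and 2953 CPM in that same sub-cluster, the one with the most *Krt14*. Only the closest relative of each member was compared. It covered 457 of the 723 *Krt5* stretches with 5 or fewer differences, 706 of 1036 for *Krt14* and 146 of 277 for *Krt15*. Other near keratins were not compared in these cells.

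After filtering, 8875 wildtype and 8617 knockout cells remained, with a median of 4941 and 4992 UMIs per cell. Keratinocytes made up 5428 and 3992 of them, and 1211 droplet barcodes occurred in both libraries. *Eppk1* itself was counted at 2965 CPM (2947 to 2982) in wildtype and 785 CPM (774 to 797) in knockout keratinocytes, and where its probes lie relative to the deletion is not given in the sources used here. Clusters were formed without the 3 keratins and named "-like" from other markers, so that the levels below took no part in the naming, and fibroblasts and sebocytes are likewise groups named from markers. A probe-based count depends on the number and efficiency of a gene's probes, hence only the change of a ratio between 2 genes across cells is read, not its absolute value.

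Among the interfollicular sub-clusters, *Krt5* and *Krt14* had their highest levels in basal-like sub-cluster 2, which was led by *Tnfsf18*, *Ch25h* and *Thbs1* (662 and 489 cells). There, *Krt5* was at 13252 CPM (13124 to 13382) and 14313 CPM (14157 to 14471), and *Krt14* at 13962 CPM (13830 to 14095) and 13535 CPM (13383 to 13688). Both genes were next highest in the small basal-like sub-cluster 13 (65 and 18 cells), marked by the interferon-response genes *Gbp2* and *Cxcl9*, with 10788 and 12859 CPM for *Krt5* and 10465 and 12648 CPM for *Krt14*. In the largest basal-like group, sub-cluster 1 (845 and 732 cells), *Krt5* was at 6516 and 7797 CPM and *Krt14* at 7922 and 8066 CPM. The 3 basal-like groups thus differed in the level of both keratins in the same order.

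*Krt15* did not follow this order. Its level in the interfollicular basal cells was 2404 and 2804 CPM in sub-cluster 2, 2240 and 2819 CPM in sub-cluster 1 and 1608 and 1407 CPM in sub-cluster 13. Sub-clusters 1 and 2 were not separated for *Krt15*, although the same cells differed in *Krt5* and *Krt14*. In proliferating cells (sub-cluster 10, 135 and 125 cells), it was at 3515 and 4259 CPM, with *Krt5* at 10513 and 11147 CPM and *Krt14* at 8624 and 8173 CPM.

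Over all units with their own cell cluster, ranked by the mean of both libraries, the members had different summits. *Krt5* was highest in basal-like sub-cluster 2, followed by basal-like 13 and the proliferating cells, which were not separated from each other. Sub-clusters 9, 7 and 8 came next for *Krt5* and could not be separated either. For *Krt14* the order was basal-like 2, basal-like 13, proliferating, basal-like 1, unnamed 9 and outer sheath-like 3, each with both libraries above both of the next. Sebocytes and bulge-like sub-cluster 5 followed for *Krt14* and were not separated. *Krt15* was highest in bulge-like 8, then companion-like 15, bulge-like 5, unnamed 7 and unnamed 9, again each above the next in both libraries. The name basal keratin therefore matched the place of the highest *Krt5* and *Krt14* levels, whereas the 4 highest *Krt15* levels all lay outside the interfollicular basal sub-clusters.

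**Figure D1:**
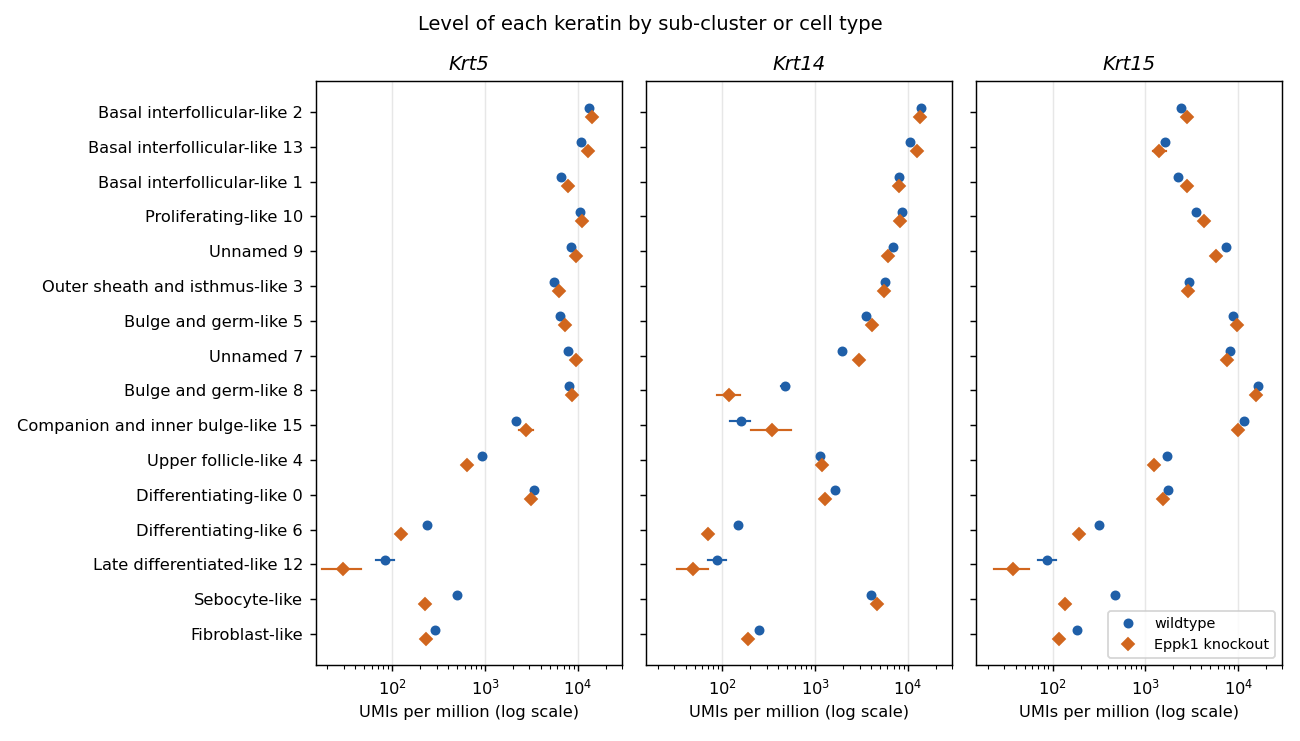
Levels of *Krt5*, *Krt14* and *Krt15* (CPM, log axis) in each keratinocyte sub-cluster, sebocytes and fibroblasts, with 1 point per library and exact Poisson intervals for counting error. *Krt5* and *Krt14* peak in basal-like sub-cluster 2, whereas *Krt15* peaks in bulge-like sub-cluster 8 at 16396 and 15646 CPM.

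To follow the members along differentiation, interfollicular-like keratinocytes were ordered by the share of their UMIs taken by *Krt1* plus *Krt10*, and then by *Flg* plus *Lor*. In the first stage, with under 0.03% *Krt1* plus *Krt10* (933 and 736 cells), *Krt5* was at 9808 and 10740 CPM, *Krt14* at 10557 and 10294 CPM and *Krt15* at 2469 and 2968 CPM. *Krt14* was the first to be lower, with 7907 CPM (7726 to 8091) and 8772 CPM (8557 to 8991) at 0.1 to 0.3%, where *Krt5* was at 9362 and 11004 CPM and *Krt15* at 3416 and 3586 CPM. At 0.3 to 1% *Krt1* plus *Krt10*, the log2 ratio to the first stage was -1.89 and -1.56 for *Krt14*, -0.92 and -0.51 for *Krt5*, and -0.04 and -0.10 for *Krt15*.

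The difference between the members widened over the next stages, up to 3 to 10% *Krt1* plus *Krt10*. At 1 to 3% (515 and 481 cells), *Krt14* had 920 and 934 CPM, *Krt5* 2024 and 2405 CPM and *Krt15* 1333 and 1296 CPM, and the log2 ratios to the first stage were -3.52 and -3.46, -2.28 and -2.16, and -0.89 and -1.20. At 3 to 10% (352 and 365 cells), the ratios were -6.58 and -6.25 for *Krt14*, -4.54 and -4.46 for *Krt5* and -2.21 and -2.31 for *Krt15*. All 3 members were thus at -2 or less at this stage, as were 10.1% and 7.56% of all genes with enough counts. Their CPM values were then 110 and 135 for *Krt14*, 422 and 488 for *Krt5*, and 532 and 600 for *Krt15*. The *Krt14* level was by then below that of fibroblasts (250 and 189 CPM), which should lack the gene, so its ratio is not resolved further.

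Expressed as a ratio of UMIs, *Krt5* per *Krt14* went from 0.929 (0.917 to 0.941) in the first wildtype stage through 1.82 at 0.3 to 1% to 3.82 (3.50 to 4.18) at 3 to 10%. In the knockout library the same ratio went from 1.04 through 2.16 to 3.61. *Krt15* per *Krt14* went from 0.234 (0.229 to 0.239) to 4.81 (4.42 to 5.25) in wildtype and from 0.288 to 4.44 in knockout keratinocytes. As *Krt14* at 3 to 10% was below its fibroblast level, the size of the ratios at that stage is not resolved. Up to 1 to 3%, the composition of the 3 keratins shifted in both libraries from *Krt14* towards *Krt5* and *Krt15* as *Krt1* and *Krt10* accumulated.

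The cells within a stage were not alike. When each cell was thinned to 2000 UMIs, 99.5% and 99.4% of first-stage cells held a *Krt14* UMI, compared with 47.3% and 57.1% at 0.3 to 1%, 22.7% and 23.0% at 1 to 3% and 12.2% and 9.27% at 3 to 10%. For *Krt15*, the shares were 94.2% and 96.0% in the first stage and still 73.3% and 71.3% at 1 to 3%, and *Krt5* lay between with 48.6% and 47.5% at 1 to 3%. Thinned fibroblasts held a *Krt14* UMI in 7.63% and 5.60% of cells, a *Krt5* UMI in 8.64% and 5.83% and a *Krt15* UMI in 8.28% and 5.29%. The *Krt14* share at 3 to 10% was therefore not far above this background, while the *Krt15* share was. Before thinning, the median depths were 11628.5 and 7012 UMIs at 3 to 10% and 6975 and 6249 UMIs in fibroblasts, and 69.0% and 78.9% of the former cells had no *Krt14* UMI.

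In the 1 to 3% stage, 53.4% of wildtype and 49.9% of knockout cells held *Krt15* without *Krt14*, and 28.3% and 27.4% held *Krt5* without *Krt14*. The reverse, *Krt14* without *Krt5*, was seen in 2.41% and 2.84%. The median cell of this stage had no *Krt14* UMI, and the 90th percentile cell had 3190 and 3798 CPM. A minority of cells with *Krt1* and *Krt10* thus carried most of the *Krt14* counts, the upper 5% of cells holding 56.9% and 61.9% of them. For *Krt15*, the upper 5% held 22.4% and 23.0%.

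In the last stage, with 3% or more *Flg* plus *Lor* (120 and 76 cells), the levels were 94.1 and 59.4 CPM for *Krt5*, 126 and 81.2 CPM for *Krt14* and 128 and 47.3 CPM for *Krt15*. Relative to the first stage, the mean log2 ratio of both libraries was -7.09 for *Krt5*, -6.69 for *Krt14* and -5.12 for *Krt15*. All 3 ratios were at -4 or less in each library, as were 8.45% and 12.6% of all genes. Each of these levels was below the mean level in fibroblasts, and *Krt5* was then lower relative to its first stage than *Krt14*. The stage before, with 0.1 to 1% *Flg* plus *Lor*, joined shallow cells with a median of 1450.5 and 990 UMIs that had *Krt5* at 7500 and 11083 CPM, and deep cells with a median of 19619 and 10679 UMIs that had *Krt5* at 276 and 279 CPM, hence no level is given for it as a whole.

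**Figure D2:**
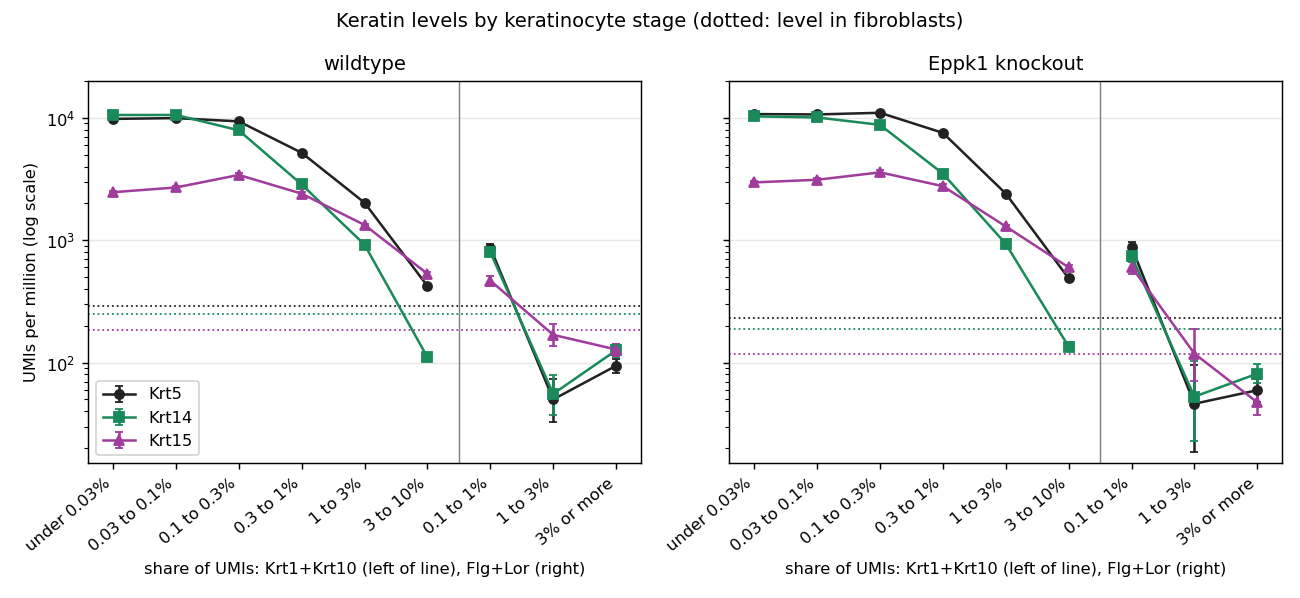
Levels of the 3 keratins (CPM, log axis) along stages set by *Krt1* plus *Krt10* and then *Flg* plus *Lor*, for each library with exact Poisson intervals, with dotted lines at the fibroblast levels and a vertical line between both kinds of stage. The first stage right of that line joins 2 kinds of cells. *Krt14* is at 7907 and 8772 CPM at 0.1 to 0.3% *Krt1* plus *Krt10* and at 110 and 135 CPM at 3 to 10%, while *Krt15* is still at 532 and 600 CPM.

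The hair follicle held the most divergent cells. Bulge-like sub-cluster 5 (434 and 216 cells) had *Ccn2*, *Krt24*, *Lgr5* and *Postn* among its leading genes. In it, *Krt15* was at 8753 CPM (8612 to 8895) and 9776 CPM (9568 to 9988), while *Krt5* was at 6496 and 7256 CPM and *Krt14* at 3545 and 4140 CPM. Relative to interfollicular basal-like cells, the log2 ratio was 1.95 and 1.81 for *Krt15* and -1.59 and -1.34 for *Krt14*. A *Krt15* ratio above 1 is no rarity in this contrast, as 32.4% of wildtype and 27.1% of knockout genes passed it, and 11.8% and 11.9% were below -1 like *Krt14*.

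Bulge-like sub-cluster 8 (231 and 145 cells) was led by *Fgf18*, *Ramp1* and *Sncg*, with the bulge marker *Cd34* last among its leading genes. It had the highest *Krt15* of all units with 16396 CPM (16117 to 16679) and 15646 CPM (15284 to 16014). *Krt5* was at 8035 CPM (7841 to 8234) and 8717 CPM (8448 to 8993), with a log2 ratio to interfollicular basal-like cells of -0.27 and -0.29. *Krt14*, in contrast, was at 472 and 117 CPM, with ratios of -4.50 and -6.48. The ratios of *Krt15* were 2.85 and 2.49, and in this contrast 27.6% and 23% of genes were above 1 and 15.8% and 16.6% below -1. These cells therefore contained the type II chain with almost no counts of its usual partner. *Krt5* per *Krt14* was 17.0 (wildtype) and 74.0 (knockout), compared with 0.908 and 1.02 in interfollicular basal-like cells. The knockout *Krt14* level, from 53 UMIs, was below the 189 CPM of knockout fibroblasts. The knockout ratio, and its difference from the wildtype one, are therefore not resolved.

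Even the few *Krt14* counts of sub-cluster 8 lay in few cells. The upper 5% of cells held 91.6% and 77.4% of them, and the other cells averaged 45.1 and 29.6 CPM. At 2000 UMIs per cell, 11.3% and 11.9% of the cells held a *Krt14* UMI, against 100% for *Krt5* and *Krt15* in both libraries, and 88.7% and 88.1% held *Krt5* without *Krt14*. Before thinning, 86.1% and 86.2% of cells had no *Krt14* UMI, at a median depth of 2772 and 2625 UMIs, and thinning left out 45 and 44 cells as too shallow. Whether those few cells shared a droplet with another cell was not tested.

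The 2 bulge-like sub-clusters differed in all 3 members, most in *Krt14*. The log2 ratio of sub-cluster 8 over sub-cluster 5 was -2.91 and -5.13 for *Krt14*, 0.91 and 0.68 for *Krt15* and 0.31 and 0.26 for *Krt5*. A ratio below -1, as for *Krt14*, was seen in 6.91% and 7.83% of genes, and one above 1, which no member had, in 3.01% and 3.69%. Across both bulge-like groups together, *Krt15* per *Krt14* was 4.40 and 4.30, against 0.212 and 0.265 in interfollicular basal-like cells, a mean log2 ratio of 4.20.

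The companion-like sub-cluster 15, named from *Krt75*, *Krt6a*, *Timp3* and *Fgf18*, resembled sub-cluster 8 in this respect, although it had only 60 and 12 cells. *Fgf18* was also the first leading gene of sub-cluster 8. *Krt15* was at 11513 and 9939 CPM, *Krt5* at 2151 and 2744 CPM and *Krt14* at 157 CPM (121 to 200) and 346 CPM (201 to 553), the last from 65 and 17 UMIs. *Krt15* per *Krt14* was 72.7 (57.3 to 95) in wildtype and 28.0 in knockout cells. The wildtype *Krt14* level was below the 250 CPM of wildtype fibroblasts, so the wildtype ratio is not resolved. The unnamed sub-cluster 7, with *Pthlh*, *Megf6*, *Aspn* and *Lgr6* among its leading genes, combined high *Krt5* (7888 and 9634 CPM) and *Krt15* (8212 and 7560 CPM) with lower *Krt14* (1944 and 2936 CPM).

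The other follicle cells were not alike. In outer sheath- and isthmus-like sub-cluster 3 (580 and 450 cells), *Krt5* was at 5569 and 6220 CPM, *Krt14* at 5578 and 5547 CPM and *Krt15* at 2965 and 2844 CPM. *Krt5* per *Krt14* was 0.998 and 1.12 there, close to the interfollicular basal ratio. The upper follicle-like sub-cluster 4 was led by *Krt79*, *Cst6* and *Defb6*, but also by the hair genes *Tchh*, *Krtap8-1* and *Krtap17-1*. Whether it joins different kinds of cells was not tested. All 3 members were low there, with 935 and 645 CPM for *Krt5*, 1118 and 1193 CPM for *Krt14* and 1719 and 1251 CPM for *Krt15*.

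Sebocytes, the lipid-producing cells of the gland attached to the follicle, showed the reverse of the bulge. *Krt14* was at 3947 CPM (3843 to 4052) and 4653 CPM (4555 to 4752), in 154 and 132 cells. *Krt5* was at 493 and 227 CPM and *Krt15* at 469 and 137 CPM. *Krt5* per *Krt14* was 0.125 and 0.0487, the lowest of all keratinocyte sub-clusters and sebocytes. The knockout *Krt5* level was below the 233 CPM of knockout fibroblasts, so the size of the knockout ratio is not resolved.

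In thinned sebocytes, 98.6% and 99.2% held a *Krt14* UMI, compared with 38.3% and 21.1% for *Krt5* and 37.6% and 24.2% for *Krt15*, and 61.7% and 78.1% held *Krt14* without *Krt5*. *Krt5* in sebocytes was uneven, as the upper 5% of cells held 44.4% and 62.3% of its UMIs and the median cell had 60.6 and 0 CPM. *Krt14* was even, with 1555, 3297 and 6040 CPM at the 10th, 50th and 90th percentile of wildtype sebocytes. *Krt14* was thus counted with little *Krt5* in sebocytes, and *Krt5* with little *Krt14* in bulge-like sub-cluster 8.

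**Figure D3:**
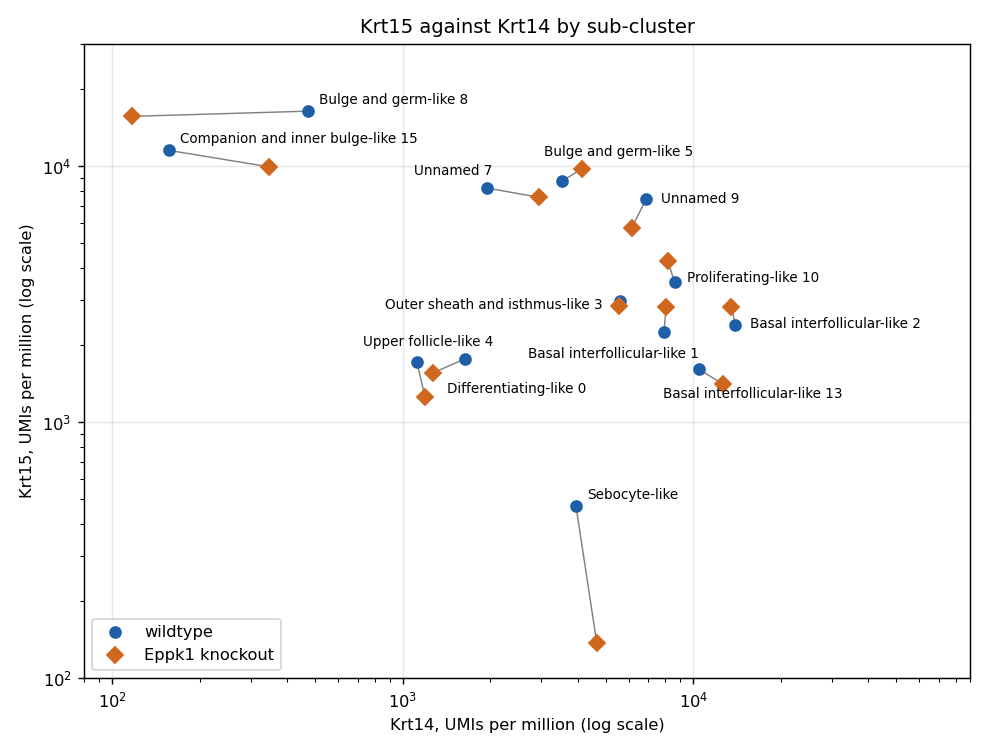
Level of *Krt15* against that of *Krt14* (CPM, log axes) for sebocytes and each keratinocyte sub-cluster but differentiating-like 6 and the *Lce*-rich one, with a line joining both libraries. Bulge-like sub-cluster 8 lies at 16396 CPM of *Krt15* and 472 CPM of *Krt14* in wildtype skin, and sebocytes at 469 CPM of *Krt15* and 3947 CPM of *Krt14*.

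Between genotypes, the sum over all keratinocytes moved little. *Krt5* was at 4298 CPM (4276 to 4319) in wildtype and 4854 CPM in knockout keratinocytes, a log2 ratio of knockout over wildtype of 0.18 (0.16 to 0.19). *Krt14* was at 3573 and 3763 CPM with a ratio of 0.07 (0.06 to 0.09), and *Krt15* at 2686 and 2493 CPM with a ratio of -0.11 (-0.12 to -0.09). None of the 3 members passed 0.5, against 7.48% of 11583 genes, and the median ratio of all genes was -0.02. Sub-cluster 6 was differentiating-like by its markers, with late differentiated as the next closest type, and is called deep differentiating-like below. Its cells made up more of the wildtype than of the knockout keratinocytes (372 and 213 cells). Without them and the *Lce*-rich cells, an alternative chosen after seeing the data, the ratios were 0.081, -0.024 and -0.19. The direction of *Krt14* thus rests on these cells.

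Within the interfollicular basal-like cells, the ratios were 0.14 for *Krt5*, -0.03 for *Krt14* and 0.30 for *Krt15*. Of the 14 keratinocyte sub-clusters, 8 had no member past 0.5, and 10 of the 42 single values passed. In basal-like sub-cluster 1, the ratios were 0.26, 0.03 and 0.33 for *Krt5*, *Krt14* and *Krt15*, where 8.95% of genes passed 0.5. In basal-like sub-cluster 2, they were 0.11, -0.04 and 0.22, with 10.6% of genes past 0.5. In the larger bulge-like sub-cluster 5, they were 0.16, 0.22 and 0.16, with 14% of genes past it. The other sub-clusters without a member past 0.5 were the differentiating-like 0 (7.23% of genes past it), outer sheath-like 3 (9.85%), unnamed 9 (17%), proliferating 10 (13.6%) and basal-like 13 (28.3%). *Krt15* in interfollicular basal-like cells and in the keratinocytes as a whole thus pointed in opposite directions, both below the size rule.

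The values past 0.5 lay mostly where the keratins were scarce. In the deep differentiating-like sub-cluster 6 (median of 22673 UMIs per cell over both libraries), the ratios were -0.95 for *Krt5*, -1.07 for *Krt14* and -0.69 for *Krt15*, against 8.88% of genes past 0.5. The levels there, 237 and 123 CPM for *Krt5* and 147 and 70.1 CPM for *Krt14*, were below those in fibroblasts, while *Krt15*, at 312 and 193 CPM, was above its fibroblast level of 183 and 118 CPM. In the *Lce*-rich sub-cluster 12 (50 and 34 cells), all 3 were also lower, with ratios of -1.50, -0.83 and -1.21 from levels under 90 CPM, where 21% of genes passed.

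*Krt14* in bulge-like sub-cluster 8 had a ratio of -2.0 (-2.46 to -1.60) from 379 and 53 UMIs, with 14.7% of genes past 0.5, yet the share of thinned cells with a *Krt14* UMI was alike at 11.3% and 11.9%. In the companion-like sub-cluster 15 the ratio was 1.17 for *Krt14*, from 12 knockout cells and with 36.5% of genes past 0.5. *Krt14* in unnamed sub-cluster 7 was 0.59 higher (0.51 to 0.68), with 13.5% of genes past 0.5. *Krt5* in the upper follicle-like sub-cluster 4 had a ratio of -0.53, with 8.18% of genes past it. Along the stages set by *Krt1* plus *Krt10*, the only value past 0.5 was *Krt5* at 0.3 to 1%, with 0.54 (0.50 to 0.59) and 10.9% of genes past it. From under 0.03% to 3 to 10%, the share of genes past 0.5 was 8.04%, 8.76%, 13.3%, 10.9%, 10.8% and 11.3%. In the last stage, the ratios were -0.66, -0.63 and -1.43 for *Krt5*, *Krt14* and *Krt15*, from levels below those in fibroblasts and with 22.7% of genes past 0.5.

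In sebocytes, *Krt5* had a ratio of -1.12 and *Krt15* of -1.77, whereas *Krt14* was at 0.24, and 29.9% of genes passed 0.5 there. The knockout *Krt5* level lay below that of knockout fibroblasts. That of *Krt15*, at 137 CPM, was near the 118 CPM of knockout fibroblasts. The size of either ratio is therefore not resolved. An unnamed cluster of 1 wildtype and 55 knockout cells, led by *Cyp2g1* and *Btc*, was not counted as sebocytes. Sebaceous was its second closest type, and what it would change in these ratios was not tested. The 2 libraries also differed in the depth of their sebocytes, with a median of 6094 and 12762 UMIs, and the part of depth or of stray counts in these ratios was not tested.

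**Figure D4:**
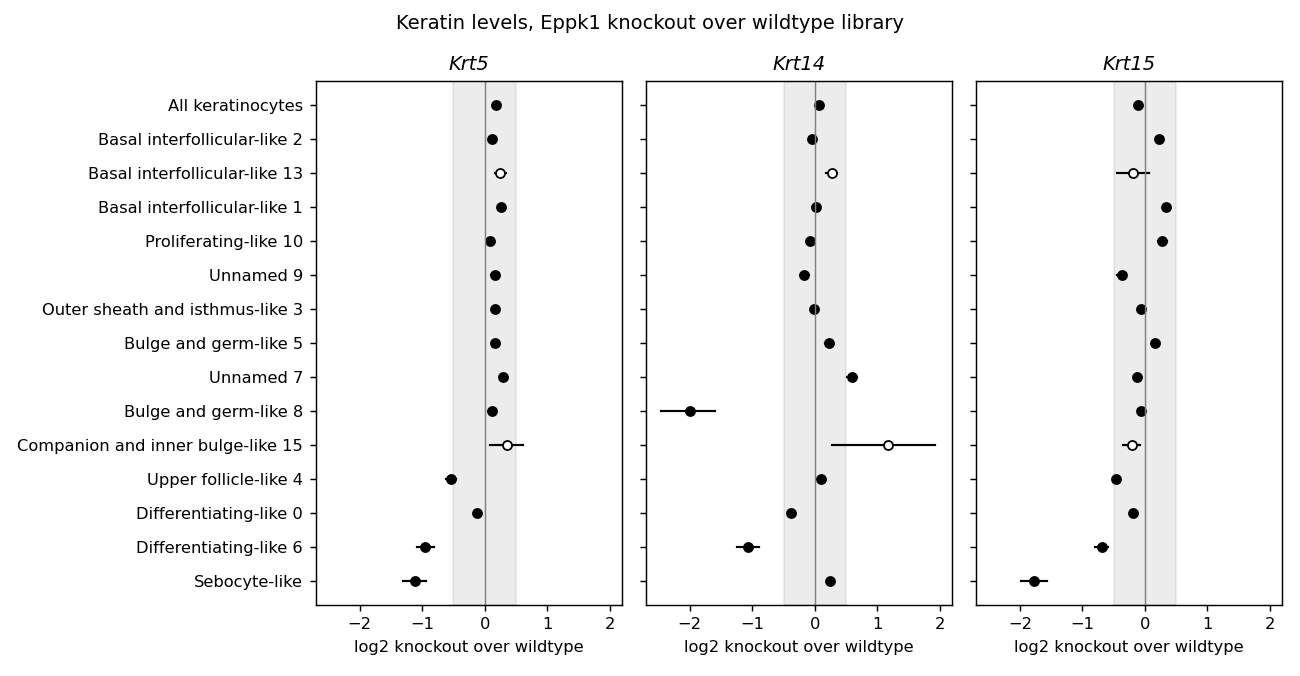
Log2 ratio of knockout over wildtype level for each member in keratinocytes as a whole, in each sub-cluster but the *Lce*-rich one and in sebocytes, with exact intervals for counting error. The grey band spans -0.5 to 0.5, and open circles mark units with under 50 cells in a library. Ratios outside the band include *Krt14* in bulge-like sub-cluster 8 at -2.0 and *Krt15* in sebocytes at -1.77. The knockout level is below that in knockout fibroblasts for the former and near it for the latter.

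Of 18 other keratins, 16 had 50 or more UMIs as the sum of both libraries. Of all genes, 7.48% were past 0.5 in either direction in knockout keratinocytes (279 higher and 587 lower of 11583). Of the 16 keratins, 1 was higher and 2 were lower, with a median log2 ratio of -0.06. The higher one was *Krt8*, a keratin of simple epithelia, at 1.02 from 148 and 203 UMIs. The lower ones were *Krt75*, a companion layer keratin, at -2.17 and *Krt6a*, a keratin of the follicle and of wounded epidermis, at -0.74, and the companion-like cells that hold most *Krt75* numbered 60 and 12. *Krt1*, the type II chain of differentiating cells, was next at 0.43. Of 14 genes for basal adhesion and its regulators, none passed 0.5, beside the same 7.48% of all genes, and the median was 0.05. The range ran from -0.22 for *Dst*, a hemidesmosomal plakin, and -0.10 for the integrin *Itgb1* to 0.16 for the transcription factor *Tfap2c* and 0.27 for *Plec*, which links keratins to hemidesmosomes.

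The genes most alike to each member over 19 cell types and sub-clusters were listed for each library. Ranked by the lower correlation of both libraries among 10405 genes, those of *Krt5* were the desmosomal cadherin *Dsg3* (Pearson's r of 0.97 and 0.99), the hemidesmosomal collagen *Col17a1*, the laminin chain *Lamb3* and the basement membrane collagen *Col4a6* (0.95 and 0.95). For *Krt15* they were *Plch2* (0.94 and 0.94), *Dsg3*, the laminin chain *Lama3*, the integrin *Itgb4* and the transcription factor *Grhl2*. For *Krt14* they were the Notch ligand *Dll1* (0.94 and 0.89), the desmosomal cadherin *Dsg2*, *Shmt1*, *Ctnnal1* and the integrin *Itga6*. Units share their libraries, and they include cell types that should lack keratins, such as fibroblasts, so that these values are a description.

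Among the members themselves, *Krt15* was the 14th most similar gene to *Krt5* (0.89 and 0.93). *Krt14* was only 378th (0.76 and 0.70). *Krt5* and *Krt14*, which form one filament pair in basal cells, were thus less alike across these units than *Krt5* and *Krt15*. Sebocytes, bulge-like sub-cluster 8 and cell types that should lack keratins were among the units included.

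Cells that should lack keratins contained stray counts of all 3 members. In fibroblasts (1831 and 2784 cells), *Krt5* was at 288 CPM (279 to 297) and 233 CPM, *Krt14* at 250 and 189 CPM and *Krt15* at 183 and 118 CPM. These were 6.69% and 4.79%, 7.0% and 5.04%, and 6.82% and 4.73% of the keratinocyte levels. The 3 members thus appeared in fibroblasts in nearly the proportions of the keratinocytes as a whole. In the same fibroblasts, *Col17a1* was at 7.35% and 5.0% of its keratinocyte level, *Krt1* at 4.23% and 3.79%, *Krt10* at 2.87% and 3.18%, and *Flg* at 0.860% and 0.600%.

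The stray counts were concentrated in few fibroblasts. The upper 5% of cells held 90.9% and 97.9% of the *Krt5* UMIs, 95.9% and 97.4% of those of *Krt14* and 89.2% and 94.9% of those of *Krt15*. In the other fibroblasts, the levels were 28.4 and 5.43 CPM for *Krt5*, 11.3 and 5.35 CPM for *Krt14* and 21.6 and 6.51 CPM for *Krt15*. With the cells most like doublets left out, the 3 keratins together were at 3.03% and 1.80% of the keratinocyte level instead of 6.83% and 4.86%. Most *Krt5* UMIs of fibroblasts lay in droplets with no cell of the other library (3601 of 4072 and 3596 of 4236). So did most fibroblasts (1603 of 1831 and 2420 of 2784). Wildtype fibroblasts in droplets with no knockout cell had *Krt5* at 6.78%, *Krt14* at 7.19% and *Krt15* at 6.42% of the keratinocyte level. The 109 that shared a droplet with a knockout keratinocyte had 4.77%, 3.67% and 12%. Knockout fibroblasts had 4.69%, 4.92% and 4.72% with no wildtype cell and 4.72%, 3.81% and 5.48% with a wildtype keratinocyte. With another cell of the other library, the values were 7.40%, 7.68% and 7.16% in wildtype and 6.65%, 8.89% and 3.68% in knockout fibroblasts. Droplets with 2 cells of the same library cannot be seen in this way.

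Macrophage-like cells had shares near those of fibroblasts, with *Krt5* at 6.12% and 5.78%, *Krt14* at 6.30% and 5.81% and *Krt15* at 7.42% and 6.65% of the keratinocyte level. Langerhans-like, T-like and some rarer cells had more. In Langerhans- and dendritic-like cells (146 and 112 cells), *Krt5* was at 21.5% and 15.3%, *Krt14* at 26.2% and 11.8% and *Krt15* at 22.5% and 20.4%. In T and NK-like cells (225 and 199 cells), the values were 26.1% and 10.2%, 22.7% and 13.5%, and 29.4% and 17.7%. Mast-like cells (53 and 72 cells) were uneven, with *Krt5* at 19.1% and 11.8%, *Krt14* at 1.80% and 16% and *Krt15* at 33.6% and 10.3%. These counts also lay in few cells. The upper 5% held 85.8% and 81.1% of the *Krt5* UMIs in Langerhans- and dendritic-like cells. They held 84.2% and 95.6% in T and NK-like and 97.4% and 65.8% in mast-like cells. The 28 wildtype melanocyte-like cells had the highest shares of the keratinocyte level, with 50.6%, 61.9% and 51.7%. The upper 5% of these melanocyte-like cells held 68.6%, 64.6% and 83.6% of the UMIs of *Krt5*, *Krt14* and *Krt15*. The 14 knockout ones held 0, 2 and 0 UMIs of *Krt5*, *Krt14* and *Krt15*, and the interval of a count of 0 reaches 144 CPM there. The median depths were 5024.5 and 5249 UMIs in Langerhans- and dendritic-like cells and 1823 and 1705 UMIs in T and NK-like cells, and the part of depth in these values was not tested.

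**Figure D5:**
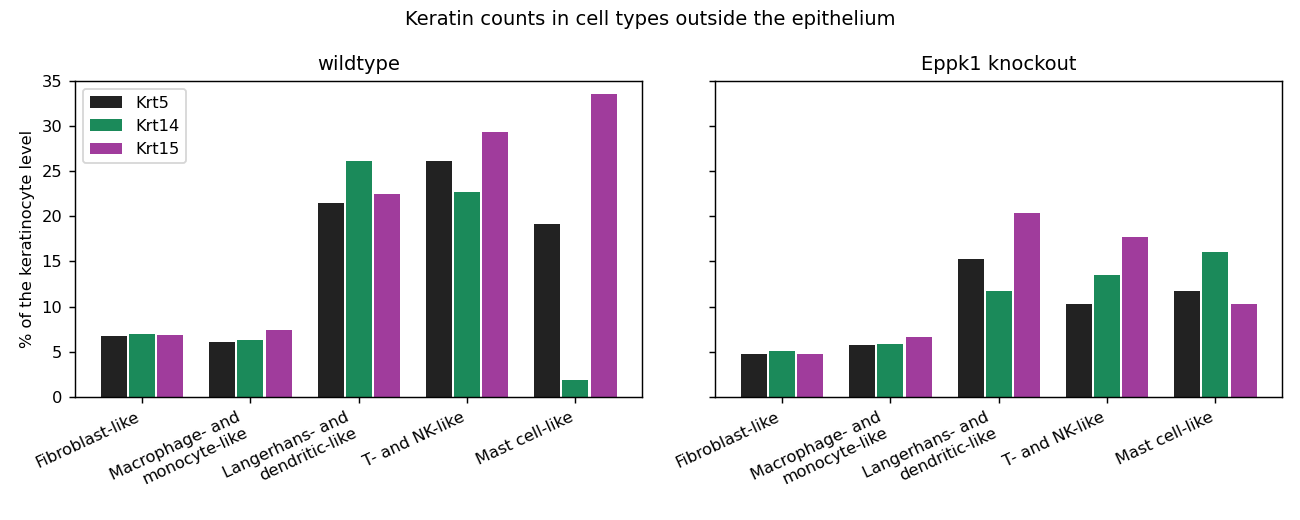
Level of *Krt5*, *Krt14* and *Krt15* in fibroblasts and in macrophage-, Langerhans-, T- and mast-like cells as a percentage of the keratinocyte level of the same library. Bars start from 0 on a linear axis and have no intervals. Sebocytes and the melanocyte-like cells, which had the highest wildtype stray values, are not shown. Fibroblasts lie between 4.73% and 7.0% for all 3 members, and Langerhans- and dendritic-like cells between 11.8% and 26.2%.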

How the data were processed

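Per the labels and the study's methods, fixed cells were hybridised with the Mouse Whole Transcriptome Probe Set and pooled, and the authors deposited 1 matrix of UMI counts per library, made with Cell Ranger 8.0.1 against mm10. The deposited counts (9179 and 8811 cells, 77638793 and 65118304 UMIs) were not normalised. Cells with 200 to 45000 UMIs, 100 to 7500 genes and up to 10% mitochondrial UMIs were kept, which left out 304 wildtype and 194 knockout cells, and 13 mitochondrial of 19059 genes were dropped. Clusters were formed in Seurat 5.3.0 (R 4.3.3) from 2000 variable genes without *Krt5*, *Krt14* and *Krt15*, 50 components and Louvain resolution 0.5, and keratinocytes were clustered again. Names came from marker lists, with the scoring rule set after the clusters were seen, and 102 and 78 cells of mixed keratinocyte sub-clusters were left out. Scrublet (scanpy 1.11.5) called 2 and 217 cells, so the top 5% of wildtype cells were left out in the doublet alternative and doublets were kept otherwise. The unnamed sub-cluster 9, nearest to basal cells, was staged with the interfollicular cells.

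With 1 library per genotype no test was run. Levels are sums over cells with exact Poisson intervals, log2 ratios (0.5 UMI added) carry exact conditional binomial intervals, and shares carry Clopper-Pearson intervals, all at 95% and for counting error only. Thinning drew 2000 UMIs per cell and left out shallower cells. The size rule of 0.5 and the intervals of levels and ratios were tested on simulated counts, drawn for the ratios from pooled keratinocytes. Stages were not simulated. The named genes are the 3 members, the 5 genes with the highest correlation of log2(CPM + 10) with each, and of 2 fixed lists the 2 highest and 2 lowest ratios among genes with 50 or more UMIs. One gene that this rule names is not reported here. Other paralogues and stray-count markers were named after their values were seen. The members and lists were chosen with earlier results of these data known. Sequences and positions come from GRCm38 with GENCODE annotation. TMM factors (edgeR 4.0.16) were used as an alternative scaling.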

Additional observations from a re-analysis of the deposited data

Results flagged for a closer look

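The direction of the ratio of knockout over wildtype across keratinocyte sub-clusters was compared for the members only, not for all genes. Among them, only *Krt14* had ratios past the size rule in both directions. The log2 ratio was 0.59 in the unnamed sub-cluster 7, -1.07 in the deep differentiating-like sub-cluster 6 and -2.0 in bulge-like sub-cluster 8. The difference between them was not tested. In sub-clusters 6 and 8 the knockout levels were 70.1 and 117 CPM, below the 189 CPM of knockout fibroblasts, and in sub-cluster 8 the upper 5% of wildtype cells held 91.6% of the counts.

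The cells removed for more UMIs or genes than the upper limits also contained the members. The 3 keratins together were at 976 CPM in 265 wildtype cells and 690 CPM in 185 knockout cells, with a median of 60840 and 63252 UMIs per cell. By gene, these cells had *Krt5* at 348 and 235 CPM, *Krt14* at 241 and 142 CPM and *Krt15* at 387 and 314 CPM.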

How the results depend on the processing

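Of the alternatives run, 41 values moved by more than their counting interval and 41 did not. No alternative reversed the stage ratios or the bulge ratio. The genotype ratios rerun were those of all keratinocytes, none of which was past 0.5. Those of single sub-clusters, stages and sebocytes, which include all genotype ratios of members past 0.5, were not rerun. Genotype ratios are given for *Krt5*, *Krt14* and *Krt15* in turn, against 0.18, 0.07 and -0.11. They were 0.20, 0.093 and -0.092 with doublets left out, 0.14, 0.027 and -0.14 as the mean over cells, 0.11, 0.018 and -0.20 with cells thinned to 2000 UMIs, 0.19, 0.091 and -0.092 with TMM scaling, and 0.13, 0.00018 and -0.027 with sub-clusters weighted by wildtype shares. Without the deep differentiating-like and *Lce*-rich sub-clusters (chosen after seeing the data) they were 0.081, -0.024 and -0.19, and *Krt14* was 0.088 without droplets that held cells of both libraries. The last over first stage ratio was -6.42 for *Krt5* and -6.00 for *Krt14* as the mean over cells, and -6.81, -6.22 and -4.70 for *Krt5*, *Krt14* and *Krt15* with thinning. It was -6.48 for *Krt14* with keratins, *Flg* and *Lor* left out of the total. *Krt15* per *Krt14* in bulge-like over basal-like cells (4.20) was 4.05 at Louvain resolution 1, 4.37 without doublets, 4.52 as the mean over cells and 4.49 with thinning. The fibroblast level of the 3 keratins (6.83% and 4.86% of keratinocytes) was 3.03% and 1.80% without doublets, 3.54% and 2.36% as the mean over cells, 3.71% and 2.64% with thinning, 7.09% and 5.83% without integration and 6.97% and 4.97% with mixed sub-clusters kept. In knockout it was 4.65% at resolution 1 and 4.75% without shared droplets. The cause of these shifts was not tested. No paired analysis was possible because each genotype has 1 library. With 1 animal per genotype, a difference between the animals and one between the genotypes cannot be told apart, and levels near those in fibroblasts were not resolved.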

Other observations

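The scarcity of the 3 members went with other keratins in named groups of cells. In the deep differentiating-like sub-cluster 6, *Krt10*, the type I chain of differentiating cells, was at 30619 and 32199 CPM and *Krt77* at 28599 and 29196 CPM, where *Krt5*, *Krt14* and *Krt15* were each under 320 CPM. In the *Lce*-rich sub-cluster 12, *Krt80* was at 7828 and 7979 CPM and *Krt23* at 6108 and 6657 CPM. The upper follicle-like sub-cluster 4 had *Krt17* at 6893 and 6736 CPM and *Krt79* at 5025 and 5107 CPM. *Krt10* and *Krt77* are among the markers that named sub-cluster 6, and *Krt17* and *Krt79* among those that named sub-cluster 4. Their levels there are therefore a description.

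*Krt24* set the 2 bulge-like groups apart, with 690 and 630 CPM in sub-cluster 5 and 71.0 and 79.3 CPM in sub-cluster 8, the group in which *Krt14* was scarce. As *Krt24* is one of the markers that named these groups, this is a description. Summed over the unnamed sub-cluster 9, *Krt15* was at 7423 and 5730 CPM and *Krt14* at 6881 and 6130 CPM. *Krt1* was at 5252 and 5338 CPM and *Krt10* at 9674 and 12182 CPM in the same sums. Its cells were spread over the stages, with 29 and 24 cells in the first and 32 and 27 at 3 to 10% *Krt1* plus *Krt10*. Whether single cells held these genes together was not tested. An unnamed cluster of 1 wildtype and 55 knockout cells, led by *Cyp2g1* and *Btc*, had *Krt5* at 2372 CPM, *Krt14* at 3049 CPM and *Krt15* at 1115 CPM in the knockout library.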
